A study of Mus musculus with 12 samples.

Results

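The collagen genes of mouse 3T3-L1 adipocytes are described here. They were the 42 genes whose array symbol reads Col, a number, the letter a and a number, out of 19480 genes with a symbol on the array. They comprised 11 fibrillar collagens, 8 basement membrane collagens and 23 others, and each was read by 1 transcript cluster, the array's set of probes for a transcribed locus. Values are log2 signals from 12 whole-transcript arrays, so a difference of 1 stands for a doubling. The cells were 3T3-L1, a mouse preadipocyte line that fills with lipid when given a hormone cocktail, and RNA was taken at day 8 of differentiation.

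The 4 treatments ran through the whole of differentiation. The first was alpha-linolenic acid (ALA, a plant polyunsaturated fatty acid) at 50 µM together with a delta-6-desaturase inhibitor at 5 µM, called ALA plus inhibitor. The second was ALA alone at 50 µM, the third was the inhibitor alone at 5 µM, and the last was the control with ethanol and DMSO. Delta-6-desaturase starts the conversion of ALA to longer, more unsaturated fatty acids. The labels give 2% fatty-acid-free albumin for the medium that carried ALA and say nothing of albumin or of matched vehicle in the other arms. All arms shared the differentiation cocktail and maintenance medium with insulin at 5 µg/ml. There were 3 arrays a treatment, 1 for each of the passages 6, 7 and 8, and so 4 arrays a passage, 1 of each treatment. All arrays came from 1 cell line, so p-values between treatments reflect how far cultures of it differed.

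Collagens are secreted triple helices of 3 alpha chains, and each gene encodes 1 kind of chain. Fibrillar collagens assemble into the banded fibrils of connective tissue, with type I (Col1a1 and Col1a2) and type III (Col3a1) as the bulk and types V and XI as minor chains that set where fibrils start and how thick they grow. Type IV collagen forms the sheet of the basement membrane that surrounds each fat cell, type XV and XVIII collagens sit in or next to that sheet, and type VI collagen forms beaded filaments that are abundant around adipocytes. During adipogenesis, fibroblast-like precursors are known to exchange a fibrillar matrix for one richer in basement membrane.

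Col1a2 and Col11a1 were among the 3 genes that passed the test between passages, and Col3a1 is the partner of type I collagen in most fibrils, so the stretch of 250 bases before the transcription start of these 3 genes is shown. The sequences are RefSeq's, from build GRCm38.p6, and lie on the plus strand at chr6:4505368-4505617 for Col1a2, chr1:45311288-45311537 for Col3a1 and chr3:114030290-114030539 for Col11a1. They are promoter sequence upstream of the first exon. Capitals mark the TATA box letters TATAAA, the CCAAT box letters CCAAT and the GC box letters GGGCGG, each searched on both strands (so a CCAAT on the opposite strand reads ATTGG), and none of the marked stretches overlap.
Col1a2: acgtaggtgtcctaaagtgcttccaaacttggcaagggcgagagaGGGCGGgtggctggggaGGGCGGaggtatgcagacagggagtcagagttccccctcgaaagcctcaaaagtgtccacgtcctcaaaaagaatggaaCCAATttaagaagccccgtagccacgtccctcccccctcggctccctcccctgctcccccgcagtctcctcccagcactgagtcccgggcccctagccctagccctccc
Col3a1: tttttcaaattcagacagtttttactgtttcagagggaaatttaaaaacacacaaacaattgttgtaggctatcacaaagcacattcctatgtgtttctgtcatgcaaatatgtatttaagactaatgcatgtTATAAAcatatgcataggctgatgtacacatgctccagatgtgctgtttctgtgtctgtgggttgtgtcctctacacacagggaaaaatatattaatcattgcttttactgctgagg
Col11a1: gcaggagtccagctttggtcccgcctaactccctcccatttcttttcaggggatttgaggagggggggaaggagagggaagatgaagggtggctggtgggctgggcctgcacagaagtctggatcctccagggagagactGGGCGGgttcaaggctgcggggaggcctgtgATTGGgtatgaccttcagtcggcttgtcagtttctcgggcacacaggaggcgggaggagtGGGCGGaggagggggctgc

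The windows of Col1a2 and Col11a1 each held the letters of the CCAAT box and the GC box. That of Col3a1 held the letters TATAAA alone, 117 bases before the transcription start. Of all 32851 promoter windows of this length, 12.4% held TATAAA, 33.8% held CCAAT and 32.7% held GGGCGG. Windows were given for 34 of the 42 collagen genes, 37 windows in all, and 5 of these held TATAAA, 12 held CCAAT and 21 held GGGCGG. A match of letters describes the sequence and does not show that a factor binds there.

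The arrays held 22104 clusters, with medians between 6.14 and 6.27. At passage 7 the ALA array resembled the others least, with correlations over all clusters of 0.976 to 0.987, where pairs of the other 11 arrays gave 0.989 to 0.994. The adipocyte label was checked against marker genes. All 8 adipocyte markers lay above the median of all clusters, with Adipoq averaging 13.08 and Fabp4 averaging 12.94 over the 12 arrays. The 5 macrophage markers averaged 4.66 to 5.11 per array and the 5 endothelium markers 4.14 to 4.55, below every array's median. Markers of preadipocytes and fibroblasts were present too, with Dlk1 at 11.42 and Vim at 12.75.

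Of the 42 collagen genes, 29 had a mean signal above the median of all clusters, namely 9 of 11 fibrillar, 6 of 8 basement membrane and 14 of 23 other collagens. The remaining 13 lay below it, where the array's floor compresses differences. A signal depends on the probes of its cluster, so levels are not ranked between genes. The chains of type I collagen, the chains Col4a1 and Col4a2 of type IV, and 3 chains of type VI all lay above that median. Col1a1 averaged 10.95 and Col1a2 averaged 12.02 over the 12 arrays, Col4a1 averaged 10.08 and Col4a2 averaged 10.00, and the type VI chains Col6a1, Col6a2 and Col6a3 averaged 11.22, 11.07 and 11.20. Among the below-median members were Col10a1 of hypertrophic cartilage, Col17a1 of epithelial attachment, Col24a1, and the kidney and lung type IV chain Col4a3.

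The first question was whether ALA or the inhibitor moved the collagens. No collagen gene was called, that is, passed an adjusted p under 0.05 (limma, Benjamini-Hochberg over all clusters), in any of the 5 treatment comparisons or in the interaction of ALA with the inhibitor, where 0% of all clusters were called. No collagen passed the unadjusted p under 0.01 that the series design names either. Among all clusters that looser rule was passed by 0.525% for ALA against control, 0.855% for the inhibitor against control, 1.47% for ALA plus inhibitor against ALA, 0.728% for ALA plus inhibitor against the inhibitor, 0.828% for ALA plus inhibitor against control and 0.638% for the interaction. In bulk RNA, fewer matrix-producing cells and less collagen RNA per cell cannot be told apart, here or in the passage comparisons that follow.

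The classes lay on different sides of 0 when the inhibitor was set against its absence, and no gene was called. For the inhibitor against control, 2 of 11 fibrillar collagens were higher with a median log2 difference of -0.11, and 6 of 23 others with a median of -0.10. All 8 basement membrane collagens were higher, by 0.005 to 0.27, with a median of 0.04. Of these 8, 2 (Col18a1 and the below-median Col4a3) were higher at every passage, against 3485 of all 22104 clusters and 21.7% of above-median clusters. Of all clusters 49.2% were higher, and of above-median clusters 56.8%, the latter with a median of 0.02. For ALA plus inhibitor against ALA, 3 of 11 fibrillar collagens were higher with a median of -0.14, and 5 of 8 basement membrane collagens with a median of 0.13. Over all clusters the medians of these comparisons were -0.00 and -0.02. The inhibitor array of passage 6 decided the first of these fibrillar values: without it the median was 0.01, with 7 of 11 higher. In the second comparison the fibrillar median was -0.06 without the ALA plus inhibitor array of passage 6, and the basement membrane median was 0.06 without passage 7 and 0.21 without passage 8. For ALA plus inhibitor against the inhibitor, where both arms held the inhibitor, the basement membrane median was also above 0, at 0.08. For ALA against control the 42 collagens had a median of 0.03, with 29 of 42 higher, against 52.2% higher among all clusters. Without the ALA array of passage 7 the median was -0.01, with 21 of 42 higher.

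**Figure D1:**
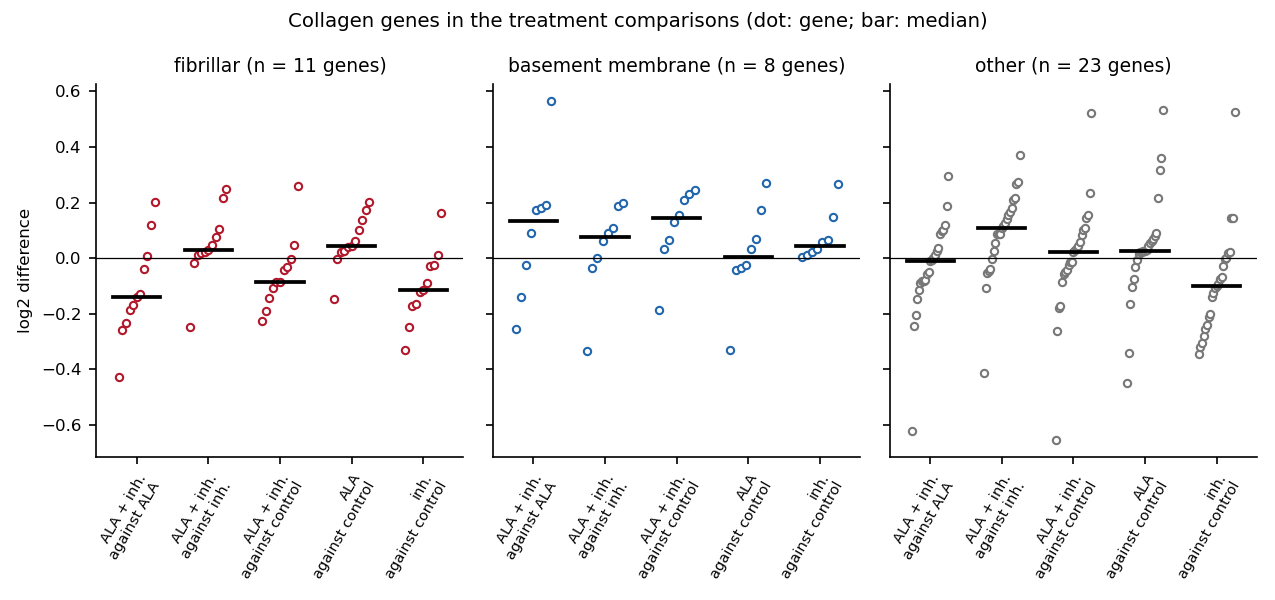
Log2 difference of each collagen gene (dots) in the 5 treatment comparisons (horizontal axis), by class, with the median as a bar. The fibrillar medians lie below 0 for ALA plus inhibitor against ALA (-0.14), ALA plus inhibitor against control (-0.08) and the inhibitor against control (-0.11). The basement membrane medians lie above 0 in all 5 comparisons, from 0.003 for ALA against control to 0.14 for ALA plus inhibitor against control. No gene was called. Without the ALA plus inhibitor array of passage 6 the fibrillar median against control was 0.01.

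Col11a1, a minor fibrillar chain known from cartilage and from remodelling stroma, was low in both arms that held the inhibitor. Its signals at passages 6, 7 and 8 were 6.89, 7.43 and 7.67 with ALA plus inhibitor, 7.41, 7.85 and 8.02 with ALA, 6.73, 7.38 and 7.57 with the inhibitor, and 7.27, 7.68 and 7.72 in control. At every passage, ALA plus inhibitor lay under ALA and the inhibitor lay under control, while the groups of 3 arrays overlapped. The gene's signals differed more between passages than between treatments. The log2 difference was -0.43 for ALA plus inhibitor against ALA (SE 0.25, 95% interval -0.97 to 0.11, limma adjusted p = 0.707) and -0.33 for the inhibitor against control (SE 0.25, 95% interval -0.87 to 0.21, limma adjusted p = 0.998). These were -0.21 without the ALA plus inhibitor array of passage 6 and -0.08 without the inhibitor array of passage 6. Passage numbers paired the arrays of ALA plus inhibitor and ALA by their correlated deviations, and with passage as a block the first difference had an unadjusted limma p = 0.0017 and an adjusted p = 0.318.

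Col1a1, the main chain of type I collagen, also lay lower in the inhibitor-containing arm of each pair at every passage, at a smaller size. Its signals at passages 6, 7 and 8 were 10.58, 10.95 and 10.98 with ALA plus inhibitor, 10.73, 11.22 and 11.26 with ALA, 10.50, 11.01 and 11.05 with the inhibitor, and 10.78, 11.07 and 11.23 in control. The log2 difference was -0.23 (SE 0.20, limma adjusted p = 0.768) for ALA plus inhibitor against ALA and -0.17 (SE 0.20, limma adjusted p = 0.998) for the inhibitor against control. The fit held no passage term, so these SEs include the spread between passages. The first difference was -0.11 without the ALA plus inhibitor array of passage 6, and the second was 0.0049 without the inhibitor array of passage 6. Col1a2, which joins it in the same trimer, differed by -0.14 and -0.02 in those comparisons. Col9a1, a fibril-associated collagen known from cartilage and lying just under the median of all clusters, read 5.87, 5.98 and 5.60 with ALA plus inhibitor and 6.02, 6.62 and 6.69 with ALA. Its groups did not overlap, and the log2 difference between them was -0.62 (95% interval -1.10 to -0.15, limma adjusted p = 0.653).

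With passage as a block, Col11a1 and Col9a1 passed an unadjusted p under 0.01 for ALA plus inhibitor against ALA, which is 2 of 42 collagens against 2.54% of all clusters, and 0 collagens and 0% of clusters were called. The inhibitor's difference averaged over ALA and control cultures was computed after seeing these values. It was -0.38 for Col11a1 (SE 0.18, limma adjusted p = 0.570), -0.20 for Col1a1 (SE 0.14, adjusted p = 0.650), -0.17 for Col5a2 (SE 0.11, adjusted p = 0.635) and -0.42 for Col9a1 (SE 0.15, adjusted p = 0.523). These 4 were lower in 6 of 6 pairs of cultures, 4 of 42 collagens against 4.52% of all clusters. In the other direction, Col18a1 (0.13) was higher in 6 of 6 pairs, 1 of 42 collagens against 3.84% of all clusters. Without a passage block, 0 of the 42 collagens passed an unadjusted limma p under 0.01, against 1.9% of all clusters, and 0 were called. With passage as a block, Col11a1 had an SE of 0.072 and a limma adjusted p = 0.146. The adjusted p was 0.293 for Col1a1 (SE 0.064), 0.419 for Col5a2 (SE 0.081) and 0.256 for Col9a1 (SE 0.115). In that fit 3 of 42 collagens passed the unadjusted p under 0.01, against 3.39% of all clusters. Called were 0 collagens, against 8 of 22104 clusters.

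The basement membrane collagens read as follows. Col4a1 had 10.07, 10.35 and 10.27 with ALA plus inhibitor at passages 6, 7 and 8, 10.06, 9.92 and 10.17 with ALA, 9.73, 10.16 and 10.20 with the inhibitor, and 9.75, 10.15 and 10.15 in control. Its log2 difference was 0.18 for ALA plus inhibitor against ALA (SE 0.16, limma adjusted p = 0.774) and 0.21 against control (SE 0.16, limma adjusted p = 1.000), and the first was 0.12 without the ALA array of passage 7. Col4a2 had 10.06, 10.13 and 9.98 with ALA plus inhibitor, 10.02, 9.78 and 10.10 with ALA, 9.74, 10.13 and 10.12 with the inhibitor, and 9.70, 10.12 and 10.15 in control. The groups overlapped for both chains, whose genes lie head to head on the same chromosome.

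Col15a1 had 10.05, 10.34 and 10.22 with ALA plus inhibitor, 9.97, 9.94 and 10.19 with ALA, 9.93, 10.15 and 10.19 with the inhibitor, and 9.92, 10.07 and 10.23 in control. Col18a1, whose protein gives rise to endostatin, had 9.68, 9.59 and 9.14 with ALA plus inhibitor, 9.41, 9.30 and 9.14 with ALA, 9.35, 9.54 and 9.25 with the inhibitor, and 9.34, 9.43 and 9.17 in control. The groups of 3 arrays overlapped for both genes, and their log2 differences for ALA plus inhibitor against ALA were 0.17 and 0.19. Col4a5, an X-linked type IV chain, had a larger log2 difference in that comparison, 0.56 (SE 0.21, 95% interval 0.11 to 1.02, limma adjusted p = 0.653). It rested in part on the ALA array of passage 7, where Col4a5 read 6.13, and was 0.35 without that array.

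Among the other collagens, the type VI chains did not pass the test in any treatment comparison. Col6a1 had 11.26, 11.40 and 11.28 with ALA plus inhibitor, 11.16, 10.94 and 11.27 with ALA, 11.05, 11.26 and 11.37 with the inhibitor, and 11.07, 11.30 and 11.32 in control. Col6a3, whose C-terminal fragment endotrophin is released by fat cells, had 11.15, 11.24 and 11.19 with ALA plus inhibitor, 11.22, 11.32 and 11.30 with ALA, 10.87, 11.29 and 11.26 with the inhibitor, and 11.13, 11.31 and 11.18 in control. Col10a1, a dim gene, averaged 3.89 ± 0.40 with ALA plus inhibitor, 3.90 ± 0.29 with ALA, 3.90 ± 0.12 with the inhibitor and 3.37 ± 0.10 in control (SD, n = 3 each). Each treated arm lay above control without overlap, by log2 differences of 0.52, 0.53 and 0.52 (limma adjusted p = 1.000, 1.000 and 0.998). These 3 differences share the control arrays.

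By the rule that names the largest differences among above-median members, ALA against control gave Col25a1 (0.22), Col11a1 (0.20), Col4a4 (0.17) and Col1a2 (0.14) on the high side and Col4a5 (-0.33), Col9a2 (-0.16), Col2a1 (-0.15) and Col6a1 (-0.10) on the low side. Several of these rested on the ALA array of passage 7: without it Col4a4 (-0.02) and Col2a1 (0.04) changed sign, Col6a1 was -0.01, Col4a5 was -0.11, Col9a2 was -0.39 and Col25a1 was 0.14. The inhibitor against control gave Col8a1 (-0.35), Col11a1 (-0.33), Col28a1 (-0.31) and Col9a2 (-0.28) on the low side. On the high side the differences were at most 0.27 (Col4a5). Col8a1 rested in part on the inhibitor array of passage 6, where it read 6.13, against 6.56 to 7.16 on the other arrays. Without that array Col11a1 was -0.08. Among the inhibitor arrays, Col28a1 and Col9a2 were not lowest at passage 6. For ALA plus inhibitor against the inhibitor, which includes the same inhibitor array, the widest were Col8a1 (0.37), Col11a2 (0.25), Col2a1 (0.21) and Col20a1 (0.21). For ALA plus inhibitor against control they were Col11a2 (0.26), Col4a5 (0.23) and Col11a1 (-0.23). None of these passed the test.

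Lists of genes that act on or with collagen were set beside these values, and the shares of all clusters that were higher were 46.6% for ALA plus inhibitor against ALA and 49.2% for the inhibitor against control. Of 12 fibril-associated matrix genes, which coat or link collagen fibrils, 1 was higher for ALA plus inhibitor against ALA, with a median of -0.28, 3 were higher for the inhibitor against control, with a median of -0.24, and 0 were called in either comparison. Of 11 procollagen processing and crosslinking genes 1 and 2 were higher, with medians of -0.18 and -0.08. Of 19 folding, modification and secretion genes 13 and 8 were higher, with medians of 0.04 and -0.02, and of 6 collagen-degrading enzymes 2 and 3 were higher, with medians of -0.03 and 0.02. Of 6 preadipocyte and fibroblast markers, 0 were higher in both comparisons, with medians of -0.29 and -0.22, and 0 were called. The mean of these 6 markers ran from 9.39 to 9.64 with ALA plus inhibitor, 9.57 to 9.83 with ALA, 9.34 to 9.62 with the inhibitor and 9.60 to 9.73 in control. Their part in the collagen values was not tested.

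The second question was how the collagens differed between passages, compared within treatment. Fibrillar collagens were higher at passage 8 than at passage 6. Col11a1 (log2 difference 0.67), Col1a1 (0.48) and Col1a2 (0.38) rose and passed an adjusted p under 0.05, which is 3 of 42 collagens, all higher, against 1.91% of all clusters. Among above-median members it was 3 of 29, against 3.19% of above-median clusters. Of the 11 fibrillar collagens 10 were higher, with a median of 0.28, against a median of -0.01 over all clusters. The 4 arrays of a passage are the 4 treatments of 1 round of culture, so the test measures the spread between arms within rounds, and passage number cannot be told apart from other features of the round.

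**Figure D2:**
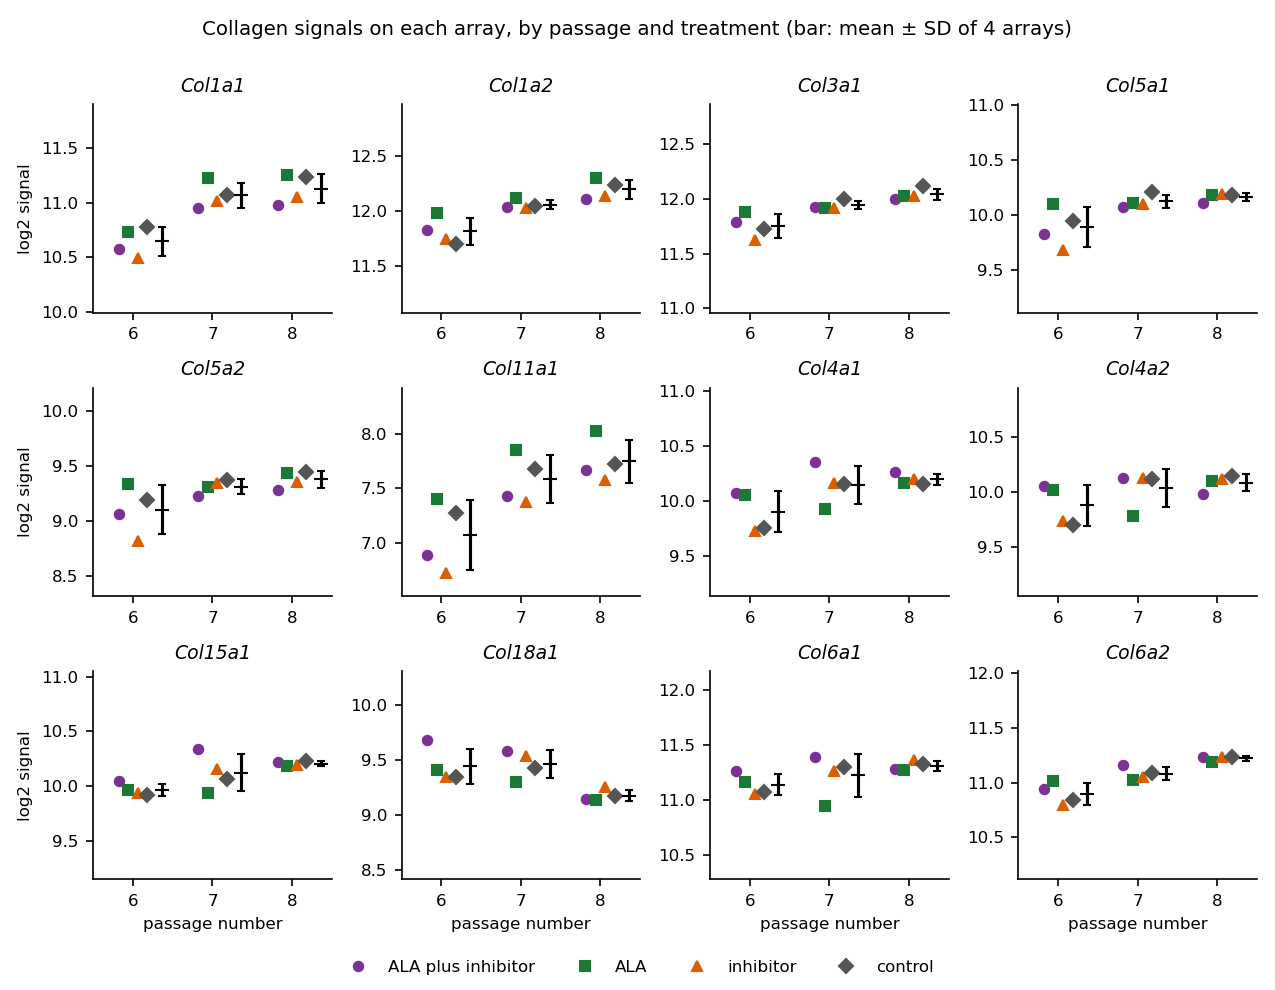
Log2 signal (vertical axis) of 12 collagen genes on each array by passage (horizontal axis), with symbols for the 4 treatments and a bar for the mean ± SD of the 4 arrays. Col1a1, Col1a2 and Col11a1 lie higher at passage 8 than at passage 6 in every treatment, and Col18a1 lies lower.

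Col11a1 averaged 7.07 ± 0.32, 7.58 ± 0.22 and 7.74 ± 0.19 at passages 6, 7 and 8 (SD, n = 4 each). Passage 8 was above passage 6 by 0.77 with ALA plus inhibitor, 0.62 with ALA, 0.85 with the inhibitor and 0.44 in control, and the 4 arrays of passage 8 did not overlap those of passage 6 (SE 0.088, 95% interval 0.47 to 0.87, limma adjusted p = 0.0058). Col1a1 averaged 10.65 ± 0.13, 11.07 ± 0.12 and 11.13 ± 0.14 (SD, n = 4 each), with differences between passage 8 and passage 6 of 0.40, 0.52, 0.56 and 0.46 in the same order of treatments (SE 0.078, limma adjusted p = 0.016). Most of its difference was present at passage 7, which lay 0.42 above passage 6. Leaving out any 1 array of passage 8, or of passage 6 other than the ALA array, took Col1a1 and Col1a2 out of the calls and left Col11a1 as the 1 called collagen, with the adjusted p of Col1a1 reaching 0.072.

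Col1a2 read 11.83, 12.03 and 12.11 at passages 6, 7 and 8 with ALA plus inhibitor, 11.98, 12.11 and 12.30 with ALA, 11.74, 12.03 and 12.14 with the inhibitor, and 11.70, 12.05 and 12.23 in control. The 4 arrays of passage 8 all lay above those of passage 6, at a log2 difference of 0.38 (SE 0.080, 95% interval 0.21 to 0.56, limma adjusted p = 0.043). This call was the least stable of the 3: Col1a2 kept it in 6 of 19 alternative analyses, Col1a1 in 12 and Col11a1 in 18. Its adjusted p reached 0.16 when the control array of passage 6 was left out.

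Col3a1 read 11.78, 11.93 and 11.99 with ALA plus inhibitor, 11.88, 11.92 and 12.02 with ALA, 11.62, 11.92 and 12.03 with the inhibitor, and 11.72, 12.00 and 12.12 in control. Passage 8 was above passage 6 without overlap, by 0.29 (SE 0.082, limma adjusted p = 0.128). The type V chains Col5a1 and Col5a2, which are built into type I fibrils, gave similar sizes. Another type V chain, Col5a3, differed less, averaging 7.36 at passage 6 and 7.52 at passage 8. Col5a1 had 9.83, 10.07 and 10.11 with ALA plus inhibitor, 10.10, 10.11 and 10.18 with ALA, 9.67, 10.10 and 10.19 with the inhibitor, and 9.94, 10.20 and 10.18 in control, a difference of 0.28 (limma adjusted p = 0.188). Col5a2 had 9.07, 9.23 and 9.28 with ALA plus inhibitor, 9.34, 9.31 and 9.44 with ALA, 8.81, 9.35 and 9.35 with the inhibitor, and 9.19, 9.38 and 9.44 in control, a difference of 0.28 (limma adjusted p = 0.220).

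Both genes were lowest on the inhibitor array of passage 6, and their passage groups overlapped for Col5a2 but not for Col5a1. Col2a1, the main chain of cartilage fibrils, was higher at passage 8 in all 4 treatments by a mean of 0.32 (limma adjusted p = 0.297). Col11a2 was the fibrillar member with the opposite sign, at -0.10.

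**Figure D3:**
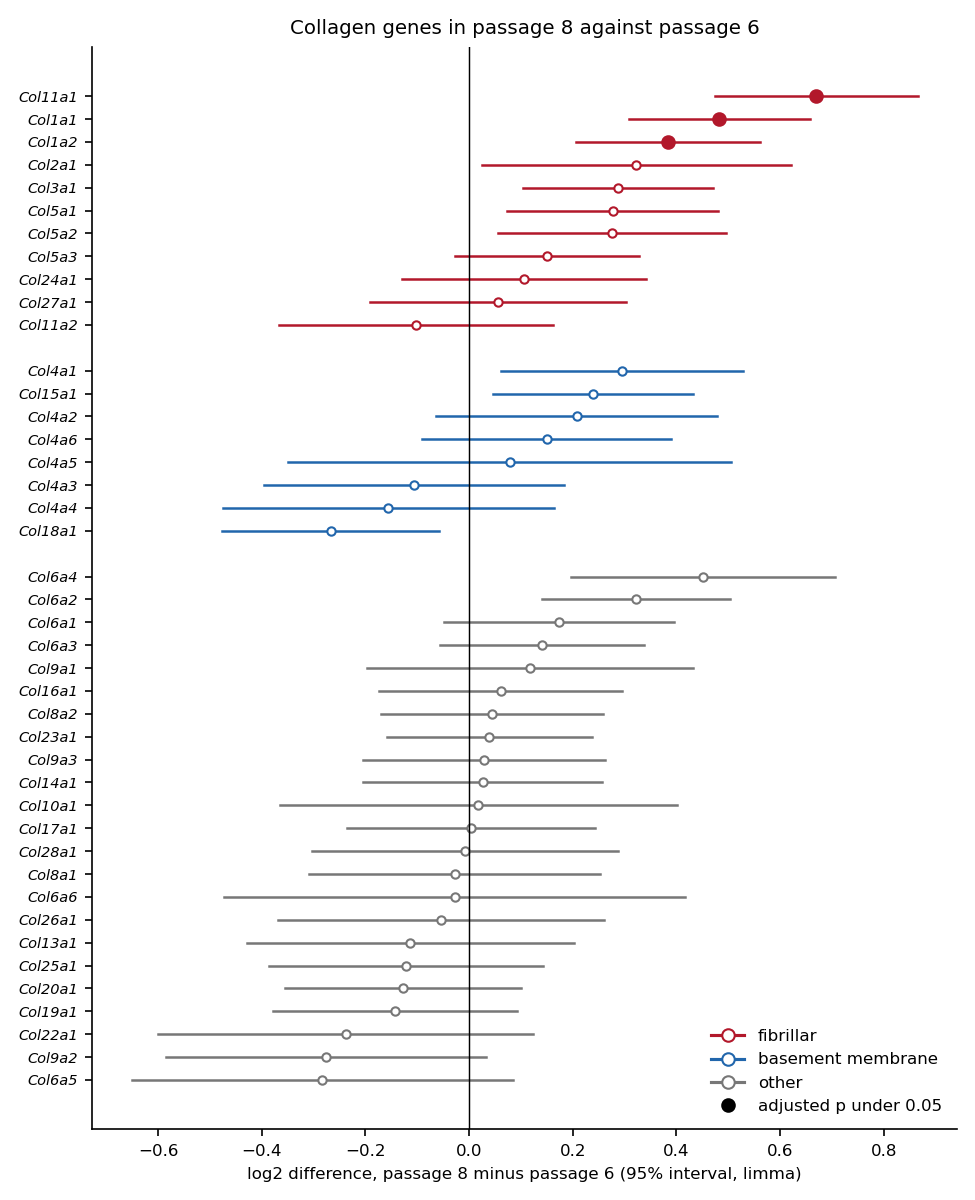
Log2 difference of each of the 42 collagen genes between passage 8 and passage 6 (horizontal axis) with its 95% interval from limma, grouped by class and coloured by it. The filled points are Col11a1 (0.67), Col1a1 (0.48) and Col1a2 (0.38), which passed an adjusted p under 0.05; Col18a1 (-0.27) is the lowest basement membrane member.

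Basement membrane collagens did not share 1 direction between passages 8 and 6, with 5 of 8 higher, a median of 0.11 and 0 called. Col4a1 differed by 0.30 (SE 0.105, limma adjusted p = 0.219), Col15a1 by 0.24 (SE 0.087, adjusted p = 0.228) and Col4a2 by 0.21. Col18a1 went the other way: it averaged 9.44 ± 0.16, 9.46 ± 0.13 and 9.18 ± 0.05 at passages 6, 7 and 8 (SD, n = 4 each). Its 4 arrays of passage 8 all lay under those of passage 6, at -0.27 (SE 0.094, limma adjusted p = 0.213).

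Of the 23 other collagens 12 were higher at passage 8 than at passage 6, with a median of 0.00 and 0 called. Col6a2 read 10.94, 11.16 and 11.23 at passages 6, 7 and 8 with ALA plus inhibitor, 11.02, 11.02 and 11.19 with ALA, 10.79, 11.05 and 11.23 with the inhibitor, and 10.84, 11.08 and 11.23 in control. Its passage 8 arrays lay within a narrow band above all passage 6 arrays, at a difference of 0.32 (SE 0.081, limma adjusted p = 0.089). Col6a4, a dim type VI chain, had 4.98, 5.04 and 5.10 with ALA plus inhibitor, 4.53, 5.20 and 5.31 with ALA, 4.78, 5.11 and 5.35 with the inhibitor, and 4.75, 4.98 and 5.08 in control, a difference of 0.45 (SE 0.114, limma adjusted p = 0.087). Col6a1 differed by 0.17 and Col6a3 by 0.14. The lowest above-median members were Col9a2 (-0.28), Col18a1 (-0.27), Col22a1 (-0.24) and Col4a4 (-0.16).

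In all, 6 of 42 collagens passed an unadjusted p under 0.01 between passages 8 and 6, all higher, against 5.95% of all clusters. Passage 8 was above passage 6 in all 4 treatments for 15 of 42 collagens, against 13.4% of all clusters, and its 4 arrays lay above without overlap for 11 of 42, against 7.13%. Of these 11, 6 were fibrillar, 2 basement membrane and 3 other collagens. Above-median clusters passed these rules more often. For the 29 above-median collagens the 3 counts were 5, 13 and 10, against 9.03%, 19.9% and 11.8% of above-median clusters. Genomic neighbours that are transcribed from adjoining loci had differences of like size in some pairs, as with Col3a1 (0.29) and Col5a2 (0.28). Col4a1 (0.30) and Col4a2 (0.21), and Col6a2 (0.32) and Col6a1 (0.17), shared a sign. Neighbours differed in sign in others, as with Col6a5 (-0.28) and Col6a4 (0.45).

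Most collagens read higher at passage 7 than at passage 6, though none was called. Passage 7 was higher for 35 of 42 collagens, with a median log2 difference of 0.17, and for 28 of the 29 above-median members, whereas 39.3% of all above-median clusters were higher. Without the ALA array of passage 7 it was 26 of 29, and the count ran from 25 to 28 over all alternatives. No collagen was called, as for 0% of all clusters, and 4 of 42 passed an unadjusted p under 0.01 against 2.09% of all clusters. These were Col11a1 (0.51, limma adjusted p = 0.445), Col1a1 (0.42, adjusted p = 0.445), Col9a1 (0.46, adjusted p = 0.459) and Col5a3 (0.27, adjusted p = 0.459).

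Col5a3, a type V chain, read 7.36, 7.71 and 7.55 at passages 6, 7 and 8 with ALA plus inhibitor, 7.38, 7.72 and 7.48 with ALA, 7.31, 7.54 and 7.53 with the inhibitor, and 7.41, 7.55 and 7.51 in control. Within each treatment, passage 7 was the highest. Col9a1 read 5.72, 6.19 and 5.70 with the inhibitor and 5.84, 6.48 and 5.93 in control, with passage 7 highest in both.

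Between passage 8 and passage 7, fibrillar collagens were higher in 8 of 11, with a median of 0.06, basement membrane collagens in 6 of 8, with a median of 0.05, and the other collagens in 7 of 23, with a median of -0.14, while 46.5% of all clusters were higher. Without the ALA array of passage 7 the basement membrane collagens were higher in 3 of 8, with a median of -0.05. The difference between classes was not tested. No collagen was called, against 0.864% of all clusters, and 2 of 42 passed an unadjusted p under 0.01, both lower, against 7.08% of all clusters. They were Col9a2 (-0.45, SE 0.139, limma adjusted p = 0.133) and Col19a1 (-0.34, SE 0.106, limma adjusted p = 0.134), which are fibril-associated collagens with interrupted triple helices, a group that sits on the surface of fibrils. Of the 8 measured genes of that group 1 was higher, with a median of -0.30.

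Col9a2 read 6.97, 7.02 and 6.71 at passages 6, 7 and 8 with ALA plus inhibitor, 6.77, 7.37 and 6.59 with ALA, 7.10, 6.91 and 6.38 with the inhibitor, and 6.98, 7.22 and 7.03 in control. Col19a1 read 5.82, 6.20 and 5.91 with ALA plus inhibitor, 5.96, 6.42 and 5.81 with ALA, 5.84, 5.84 and 5.60 with the inhibitor, and 5.84, 5.81 and 5.58 in control. The ALA array of passage 7 was the highest of the 12 for both. Without it the differences between passage 8 and passage 7 were -0.33 for Col9a2 and -0.26 for Col19a1. Col13a1 (-0.41), Col22a1 (-0.41) and Col8a1 (-0.34) were also lower at passage 8 than at passage 7 in all 4 treatments and did not pass the adjusted test, and were -0.28, -0.31 and -0.32 without that array.

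**Figure D4:**
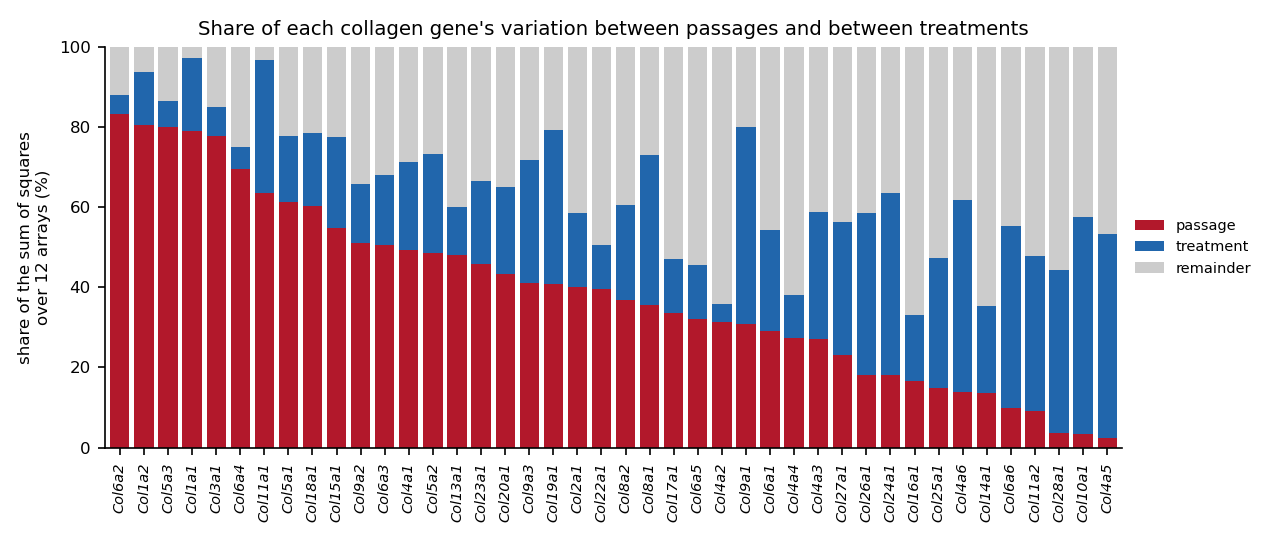
Share of each collagen gene's sum of squares over the 12 arrays (vertical axis, percent) that lay between passages, between treatments and in the remainder, with the genes ordered by the passage share. Col6a2, Col1a2, Col5a3, Col1a1 and Col3a1 lead with 83.3%, 80.6%, 80.2%, 79.0% and 77.8% between passages.

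Each gene's sum of squares over the 12 arrays was split into shares between passages, between treatments and left over. The share between passages had a median of 38.2% over the 42 collagens and 61.3% over the 11 fibrillar ones, against 23.4% over all clusters and 29.4% over above-median clusters. The share between treatments had a median of 21.7% for the collagens and 25.3% for all clusters. Passage exceeded treatment in 28 of 42 collagens, against 47.1% of all clusters. By the degrees of freedom alone, passage would hold 18.2% and treatment 27.3%. Col11a1 was split between both, with 63.5% between passages, 33.2% between treatments and 3.31% left over. Col1a1 had 79.0%, 18.3% and 2.79%. Col4a5 (50.8%), Col10a1 (54.2%) and Col9a1 (49.1%) had treatment shares near or above the rest of their variation.

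Genes that make, process and bind collagen were set beside the family for passage 8 against passage 6. Of the 12 fibril-associated matrix genes all 12 were higher, with a median of 0.50, and 6 were called: Fmod (1.15), Lum (1.09), Ogn (0.85), Dcn (0.84), Postn (0.72) and Thbs1 (0.64). Fmod, Lum, Dcn and Ogn encode small leucine-rich proteoglycans that bind fibrils or are their relatives. Of 11 genes of procollagen processing and crosslinking 9 were higher and 3 were called, namely Pcolce2 (0.77) and Pcolce (0.44), enhancers of C-propeptide removal, and Lox (0.63), which crosslinks fibrils. Of 19 folding, modification and secretion genes 14 were higher and 1 was called, the prolyl hydroxylase subunit P4ha3 (0.97), while the collagen chaperone Serpinh1 differed by 0.14 without passing.

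Of 6 collagen-degrading enzymes 4 were higher and 2 were called, Mmp14 (0.56) and Mmp2 (0.41). Of 15 genes of the TGF-beta ligands, receptors and responses 10 were higher and 2 were called, Ltbp1 (0.86) and Tgfb2 (0.58), and Tgfb1 differed by -0.25 without passing. Of 8 collagen receptors 5 were higher and 0 were called. These counts are to be read against the 1.91% of all clusters and 3.19% of above-median clusters called in the comparison. The lists share no gene with the collagens, but they were chosen with earlier results of these data known.

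**Figure D5:**
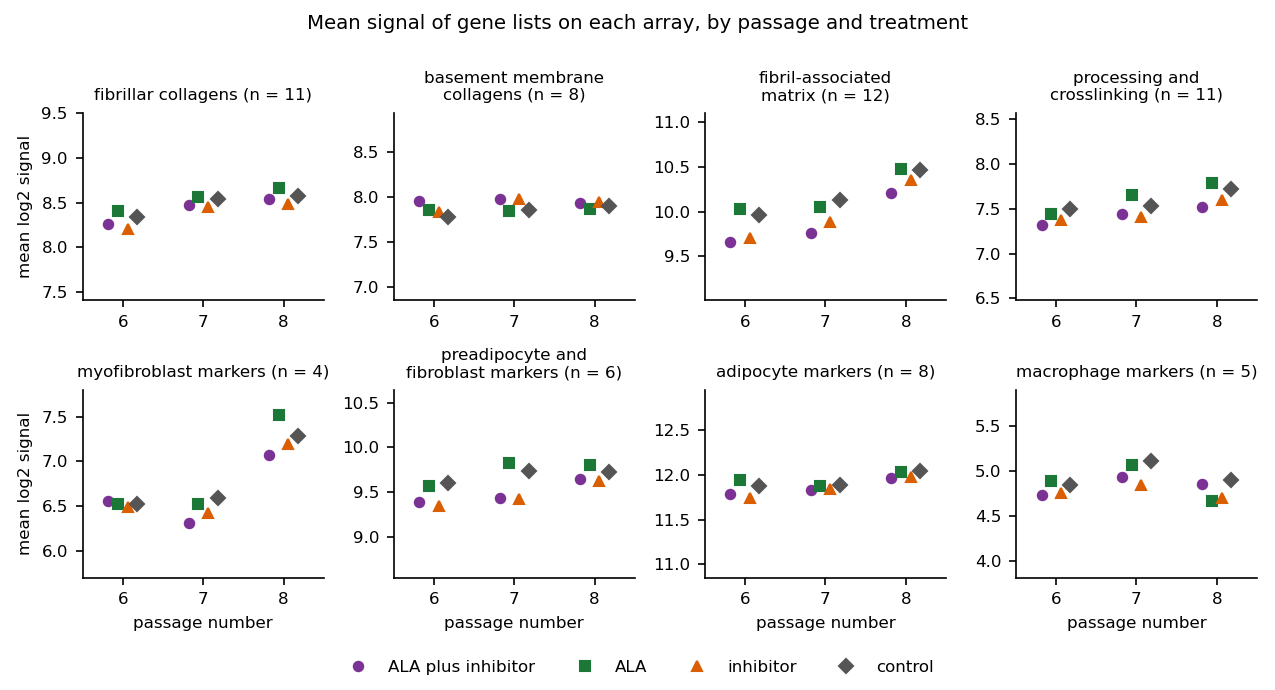
Mean log2 signal of each gene list on each array (vertical axis) by passage (horizontal axis), with symbols for the 4 treatments. The fibrillar collagens, the fibril-associated matrix and the myofibroblast markers lie higher at passage 8 than at passage 6, and the macrophage markers stay between 4.66 and 5.11.

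Markers of other cell states were compared between the same 2 passages. Of 4 myofibroblast markers 3 were called higher at passage 8 than at passage 6, Acta2 (1.54, limma adjusted p = 0.00033), Tagln (0.78) and Myl9 (0.76). The remaining marker, Cnn1, did not rise. The mean of the 4 ran from 7.07 to 7.52 at passage 8 and from 6.49 to 6.55 at passage 6. Of 6 preadipocyte and fibroblast markers 6 were higher and 1 was called, Pdgfrb (0.44). The mean of the 8 adipocyte markers ran from 11.96 to 12.04 at passage 8 and from 11.74 to 11.95 at passage 6, with 8 of 8 higher and 0 called. The mean of the 11 fibrillar collagens ran from 8.49 to 8.66 at passage 8 and from 8.20 to 8.40 at passage 6. At passages 6, 7 and 8 it averaged 8.30, 8.51 and 8.57, whereas the myofibroblast mean averaged 6.52, 6.46 and 7.26. Of 7 osteoblast and chondrocyte markers 1 was called, Sox9 (0.55), and of 4 muscle markers 1 was called lower, Des (-0.68). No macrophage or endothelium marker was called. The part of these markers in the collagen differences was not tested.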

How the data were processed

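The values were log2 signals per transcript cluster as deposited by the authors, made with RMA (background correction, normalization across arrays and summary of probes) per the submitters' processing notes; its software and version are not given in the sources used here. Of 22104 clusters, 19509 carried 1 gene symbol from GEO's platform annotation. No filter or further scaling was applied. Arrays give no read depth, and their number limits the precision.

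Treatments were compared in 1 limma model of the 12 arrays with a coefficient per treatment, and passages in a model with treatment as covariate (R 4.3.3, limma 3.58.1, eBayes, two-sided, Benjamini-Hochberg over all clusters). The fitting code was tested on simulated data. Deviations from the group means correlated within every passage for ALA plus inhibitor with ALA (0.16 to 0.24) and with control (0.12 to 0.23), but not above 0.1 in every passage for the other pairs.

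Named with all values were the main fibrillar, basement membrane and type VI chains and members at unadjusted p under 0.01; per comparison, up to 4 higher and 4 lower above-median members were named from their differences, and not all are printed. Members, classes and lists were chosen with earlier results of these data known. Some list members were not analysed here. Alternatives were passage as a block, centring, quantile normalization, array weights, an intensity trend, a filter on dim clusters and leaving out arrays.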

Additional observations from a re-analysis of the deposited data

Results flagged for a closer look

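Of the 54 sets of 4 arrays tested (18 collagen genes at 3 passages), 5 held an array that stood apart from the other 3 of its passage, and chance alone flags about 1 set in 20. Col3a1 read 12.00 in the control of passage 7, above the other arrays of that passage. Col4a2 read 9.78 with ALA at passage 7, below the others, on the array that also correlated least with the rest. Col5a1 read 10.11 with ALA plus inhibitor at passage 8, below the others. Col6a2 read 11.19 with ALA at passage 8, below the others. Col19a1 read 5.96 with ALA at passage 6, above the others.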

How the results depend on the processing

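No collagen was called in any treatment comparison under any of the 22 or 23 alternatives run for each. The medians of the collagens and of their classes moved by less than the spread between cultures, other than 1 fibrillar median of the interaction, and some changed sign near 0. For treatments that spread (0.14 to 0.19) was as wide as most of the medians, so staying within it does not show stability. The fibrillar median for the inhibitor against control stayed within it while going from -0.11 to 0.01. For the inhibitor against control, Col1a1 changed sign without the inhibitor array of passage 6, at 0.0049, where leaving out 1 array gave -0.30 to 0.0049. With passage as a replicate block, 2 collagens passed an unadjusted p under 0.01 for ALA plus inhibitor against ALA and 1 (Col11a1) for the inhibitor against control, and the block changed no call. For the inhibitor averaged over both backgrounds, a comparison chosen after seeing the data, the block gave 3 collagens at that p (3.39% of all clusters) and 2 without the ALA array of passage 7, with Col11a1 at an adjusted p of 0.146 and 0.242.

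Between passages 8 and 6 the 3 calls became 5 without the dimmest 30% of clusters, 5 with array weights and 8 with an intensity trend, became 2 with arrays centred on their medians, with quantile normalization and with no treatment term, and ran from 1 to 3 when 1 array was left out. With the intensity trend, 1 collagen was called for passage 7 against passage 6 and 1 for passage 8 against passage 7, against 0 in each without it. The cause was not tested. The number of arrays limits the precision.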
